A study of Mus musculus with 24 samples.

Results

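Before any doxycycline was given, RN2 leukaemia cells carrying the hairpin shOgdh2081 were set against RN2 cells carrying the control hairpin shRen713. RN2 is a mouse acute myeloid leukaemia line with the genotype Mll-Af9; NrasG12D, and all libraries compared here share that genotype. The 8 libraries were those labelled day 0 and untreated with either hairpin, out of 24 in the series: 4 came from shOgdh2081 clones 3 and 5, and 4 from control clones 2 and 7, with 2 libraries per clone. The remaining libraries came from another hairpin against Ogdh, shOgdh346, at day 0 (4 libraries), and from all 3 hairpins at day 4 of doxycycline. The hairpins were delivered by retroviral vectors whose shRNA is doxycycline-inducible, and each hairpin was represented by 2 clonal isolates. A difference between hairpins at day 0 is therefore a difference between 2 clones and 2 other clones, and an effect of the uninduced hairpin cannot be told apart from a difference in the origin of the clones.

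Ogdh encodes the E1 subunit of the 2-oxoglutarate dehydrogenase complex, the mitochondrial TCA cycle enzyme that turns 2-oxoglutarate into succinyl-CoA with the subunits Dlst (E2) and Dld (E3) and a lipoic acid cofactor. An inducible hairpin is meant to be silent until doxycycline is added, and a leaky one lowers its target beforehand. A clone descends from a single cell, so clones of a line can differ in stably inherited gene activity whatever vector they carry.

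Total counts ran from 7665099 to 12519741 in the shOgdh2081 libraries and from 7275680 to 13232745 in the control libraries. Mitochondrially encoded genes took 1.79% to 2.46% of the counts with shOgdh2081 and 1.74% to 2.04% in the control. The markers of the line were present in all 8 libraries. Ptprc, the CD45 leukocyte antigen, had 318 to 452 CPM with shOgdh2081 and 312 to 354 CPM in the control, and the primary granule protease Ctsg had 1486 to 1652 CPM with shOgdh2081 and 1420 to 1589 CPM in the control. Of the defining markers of other cell types, Cd3e and Pf4 had 0 counts over the 8 libraries, and Pax5 had 1 count, while the megakaryocyte marker Itga2b had 402 counts (up to 9.7 CPM) and the basophil marker Mcpt8 had 1546 counts (up to 23.7 CPM). Levels are given as CPM, read counts scaled to the TMM-corrected size of the library. The 2 libraries of a clone were summed for tests, the clone was the replicate (n = 2 per hairpin), and adjusted p-values come from the quasi-likelihood test of edgeR, adjusted by Benjamini-Hochberg over all genes tested. Nothing says that clones were sampled from separate experiments, so p-values measure the spread between these clones.

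The targeted gene came first. Ogdh (ENSMUSG00000020456, GRCm38 chromosome 11, 6291633 to 6356642) had 177 and 232 CPM in the libraries of shOgdh2081 clone 3 and 160 and 169 CPM in those of clone 5, against 199 and 213 CPM in control clone 2 and 241 and 246 CPM in control clone 7. Clone 5 was the lowest and control clone 7 the highest, while clone 3 overlapped control clone 2. The mean was 184.7 ± 28.4 CPM in shOgdh2081 clones and 224.8 ± 26.5 CPM in control clones (SD, n = 2 clones each). The fitted log2 difference was -0.28 ± 0.15 (SE), with a 95% interval of -0.65 to 0.09, which is a ratio of 0.824 with an interval of 0.639 to 1.06. The difference did not pass the test (adjusted p = 0.9997). With the 4 clones permuted in all 6 ways, the difference of -40.08 CPM had an exact two-sided permutation p of 0.333, and 0.333 is the smallest value this design allows. Leaving out a library or a clone moved the log2 difference between -0.453 (without shOgdh2081 clone 3) and -0.127 (without shOgdh2081 clone 5). At day 4 of doxycycline the same clones stood at -2.11 on the log2 scale (adjusted p = 0.0345), and the change of the difference was -1.87 (adjusted p = 0.00127 with the clone as a block).

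The partner subunits overlapped the control before induction. Dlst, the E2 subunit, had 285 and 284 CPM in shOgdh2081 clone 3 and 302 and 298 CPM in clone 5, against 297 and 298 CPM in control clone 2 and 259 and 261 CPM in control clone 7. Dld, the E3 subunit, had 203 and 176 CPM in clone 3 and 170 and 163 CPM in clone 5, against 145 and 134 CPM in clone 2 and 174 and 161 CPM in clone 7. Both genes overlapped between hairpins, with log2 differences of 0.07 ± 0.10 for Dlst and 0.20 ± 0.14 for Dld (SE).

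Lias, the lipoic acid synthase, had 41.7 and 42.4 CPM in clone 3 and 43.7 and 40.4 CPM in clone 5, against 38.4 and 34.04 CPM in clone 2 and 38.5 and 30.9 CPM in clone 7. Sucla2, a subunit of succinyl-CoA synthetase, the next step of the cycle, had 89.2 to 93.9 CPM with shOgdh2081 against 78.1 to 84.9 CPM in the control. For both genes all 4 shOgdh2081 libraries lay above all 4 control libraries, by 0.23 ± 0.08 and 0.16 ± 0.07 on the log2 scale (SE), and neither passed the threshold (adjusted p = 0.9997 each). The same order of libraries was found in 202 of all 13125 genes tested (1.54%). Ogdhl, the Ogdh paralogue, overlapped between hairpins, with 20.02 to 22.5 CPM in clone 3 and 13.4 to 14.2 CPM in clone 5, against 11.3 to 11.5 CPM in control clone 2 and 17.3 to 18.95 CPM in control clone 7. Of the 11 tested genes of the complex, its lipoylation and succinyl-CoA synthetase, 0 passed, 1 had an unadjusted p under 0.05, and the median log2 difference was 0.112, against -0.0013 over all 13125 genes tested.

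**Figure D1:**
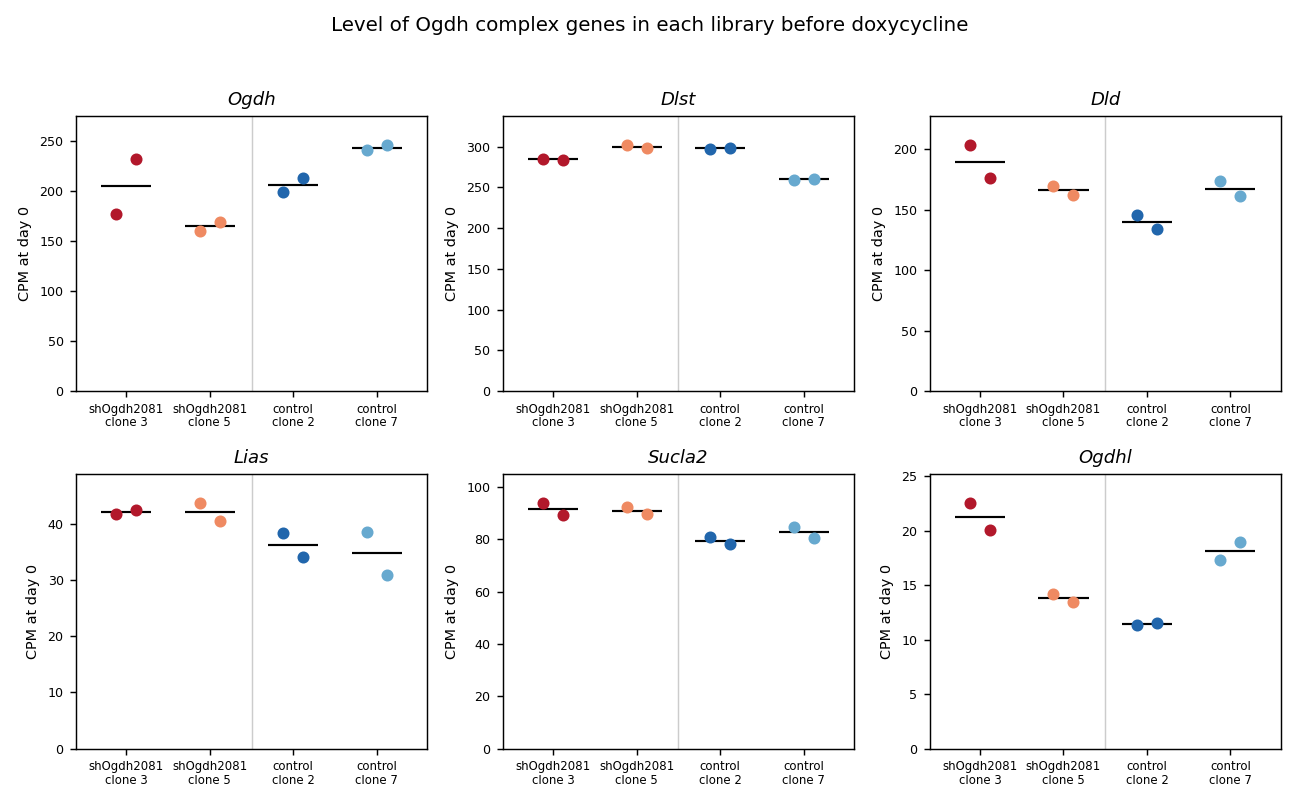
CPM at day 0 of 6 genes around Ogdh in each library (points), by clone, with the mean of the 2 libraries of a clone as a line. Ogdh overlaps between shOgdh2081 clone 3 and control clone 2, and Lias and Sucla2 lie higher in all 4 shOgdh2081 libraries, as did 1.54% of all genes tested.

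Across the transcriptome, 0 of 13125 genes were higher and 0 were lower with shOgdh2081 (0% at adjusted p under 0.05; the smallest adjusted p was 0.9997). At an unadjusted p under 0.05 there were 225 genes (1.71%), 109 higher (0.83%) and 116 lower (0.884%), and the smallest p was 0.000537. Evenly spread p-values would put a share of 0.05 of the genes under that cut, so the count was not an excess. limma voom on the same sums also called 0, with 229 at an unadjusted p under 0.05. DESeq2 called 2, with 219 at an unadjusted p under 0.05: Rnf157, lower by its log2 estimate of -0.692, and F630028O10Rik, higher by 0.272, both at an adjusted p of 0.0499. F630028O10Rik was named after its value was seen. Without the filter on low counts, edgeR called 183 of 24952 genes, and 162 of them had been among the 13125. In that fit the median of the prior degrees of freedom was infinite, against 2.72 in the filtered fit. For a gene with an infinite prior, the spread between its own clones carried no weight. In 124 of the 162 genes the libraries of the hairpins overlapped. Of the genes with the smallest p described next, Ryk (adjusted p = 1.14e-05), Fabp5 (0.0191), Rnf157 (0.034), Sema4d (0.00774), Prss16 (1.21e-08) and Ckap4 (2.52e-08) were among the 183.

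The differences themselves were small. The median absolute log2 difference was 0.101, 90% of genes lay within 0.455, and 302 genes (2.3%) were past 2-fold. The median SE was 0.15. All 4 shOgdh2081 libraries lay above all 4 control libraries in 202 genes (1.54%) and below them in 266 (2.03%), which makes 468 (3.57%).

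None of the genes named next passed the threshold in the filtered edgeR fit. They are those with the smallest p among the genes of at least 5 CPM whose libraries did not overlap. Intervals that leave out 0 follow from this choice and add no support. Higher with shOgdh2081 stood Ryk, a Wnt-binding receptor with a kinase-like domain, at 14.7 and 12.8 CPM in clone 3 and 9.41 and 9.62 CPM in clone 5, against 2.19 and 2.13 CPM in control clone 2 and 4.60 and 4.35 CPM in control clone 7. Every shOgdh2081 library was above every control library, by a fitted log2 difference of 1.79 ± 0.41 (SE; 95% interval 0.76 to 2.81; unadjusted p = 0.00559). It was the largest of the 12 named differences in this direction.

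Hsp90aa1, the inducible cytosolic HSP90, had 724 and 635 CPM in clone 3 and 701 and 611 CPM in clone 5, against 553 and 479 CPM in clone 2 and 591 and 533 CPM in clone 7. Chordc1, an HSP90 co-chaperone, had 117 to 150 CPM with shOgdh2081 against 99.5 to 112 CPM in the control. Their log2 differences were 0.30 ± 0.10 and 0.27 ± 0.09 (SE). For Hsp90aa1 the first library of each clone was higher than the second in all 4 clones.

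Fabp5, which binds fatty acids, had 48.3 and 36.2 CPM in clone 3 and 40.2 and 34.7 CPM in clone 5, against 30.5 and 20.1 CPM in clone 2 and 28.6 and 24.3 CPM in clone 7. Kdsr, a reductase of sphingolipid synthesis, averaged 27.6 ± 0.162 CPM with shOgdh2081 and 21.1 ± 0.077 CPM in the control (SD, n = 2 clones each). Map1b, a microtubule-associated protein, averaged 16.9 ± 0.603 CPM with shOgdh2081 and 11.1 ± 1.06 CPM in the control. Ift80, of intraflagellar transport, averaged 39.1 ± 0.705 CPM with shOgdh2081 and 29.7 ± 3.05 CPM in the control. The remaining higher genes were close to the control: the RNA-binding proteins Stau1, Rbm28 and Rbm26 and the cap methyltransferase Rnmt had log2 differences of 0.23, 0.23, 0.22 and 0.18.

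Lower with shOgdh2081 stood Rnf157, a RING-type ubiquitin ligase, at 11.98 and 18.2 CPM in clone 3 and 16.3 and 16.7 CPM in clone 5, against 25.97 and 26.9 CPM in clone 2 and 25.6 and 23.7 CPM in clone 7. Its log2 difference was -0.69 ± 0.10 (SE; 95% interval -0.95 to -0.43; unadjusted p = 7e-04, adjusted p = 0.9997 with edgeR). Sema4d, a transmembrane semaphorin of leukocytes, had 40.8 and 45.8 CPM in clone 3 and 41.4 and 40.1 CPM in clone 5, against 55.2 and 53.2 CPM in clone 2 and 60.8 and 67.7 CPM in clone 7. Libraries that did not overlap were a condition for naming both genes. The clone means of Rnf157 were 15.1 and 16.5 CPM for clones 3 and 5 and 26.4 and 24.6 CPM for clones 2 and 7. Those of Sema4d were 43.3 and 40.7 CPM for clones 3 and 5 and 54.2 and 64.2 CPM for clones 2 and 7.

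Ckap4, a membrane protein of the endoplasmic reticulum, had 56.4 and 55.6 CPM in clone 3 and 37.0 and 36.0 CPM in clone 5, against 72.7 and 78.7 CPM in clone 2 and 83.1 and 77.0 CPM in clone 7. Prss16, the thymus-specific serine protease, had 40.4 to 58.3 CPM with shOgdh2081 against 73.3 to 94.4 CPM in the control. These were the 2 largest of the 12 named differences in this direction, at -0.77 ± 0.21 and -0.76 ± 0.17 on the log2 scale (SE), and Ckap4 also differed between the shOgdh2081 clones.

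Mllt6, which encodes an MLL fusion partner (GRCm38 chromosome 11, 97663414 to 97685463), had 23.4 to 28.6 CPM with shOgdh2081 against 33.4 to 37.5 CPM in the control. Its neighbour Pcgf2, a Polycomb group RING finger protein (chromosome 11, 97688823 to 97700497), averaged 10.27 ± 0.00719 CPM with shOgdh2081 against 14.55 ± 0.715 CPM in the control (SD, n = 2 clones each). Prodh, the proline dehydrogenase of mitochondria, had 14.4 to 19.2 CPM with shOgdh2081 against 20.4 to 31.8 CPM in the control. The log2 differences were -0.43, -0.51 and -0.56 for Mllt6, Pcgf2 and Prodh, none past the adjusted threshold. Scand1, a SCAN domain protein, and the transcription factor Foxp4 had log2 differences of -0.59 and -0.32. The hydrolase Abhd8, Retreg2 of the endoplasmic reticulum and the cap-adjacent methyltransferase Pcif1 stood at -0.42, -0.26 and -0.33.

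**Figure D2:**
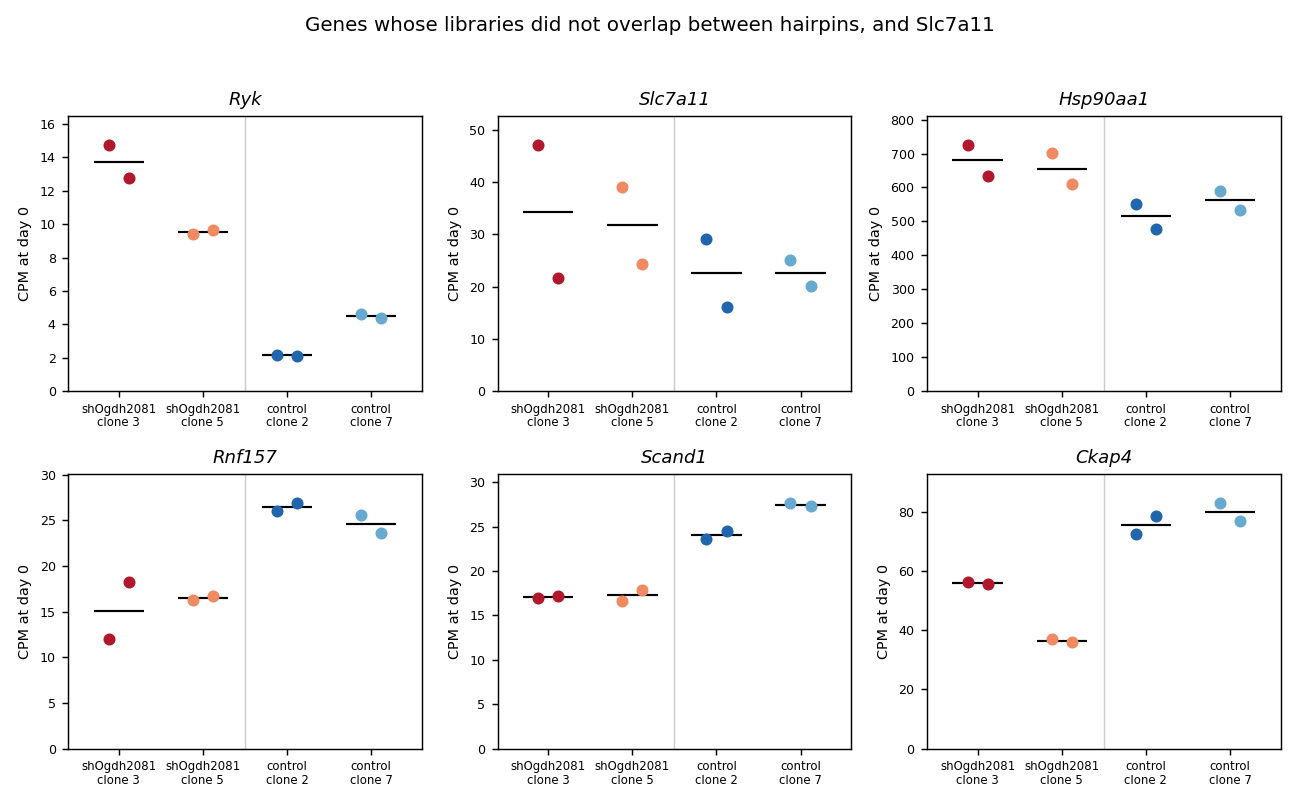
CPM at day 0 in each library (points) with clone means (lines) for 5 genes whose libraries did not overlap between hairpins, and for Slc7a11, whose libraries did. Ryk and Hsp90aa1 are higher and Rnf157, Scand1 and Ckap4 lower in all 4 shOgdh2081 libraries, and none passed the adjusted threshold in the filtered edgeR fit.

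Gene lists for metabolism, stress, cell cycle and myeloid identity held 0 called members in each of 28 lists by the filtered edgeR fit, by limma voom and by DESeq2, and the counts at an unadjusted p under 0.05 were between 0 and 2 per list. The edgeR fit without the filter called 23 members in 12 of the 28 lists, among them Slc16a3 (adjusted p = 0.000772), S100a8 (6.83e-06), Lyz2 (2.99e-08) and Hoxa9 (0.00095). Among targets of ATF4, the factor that drives the amino acid stress response, 37 were tested, 1 had an unadjusted p under 0.05 and the median log2 difference was -0.0429. That member was Slc7a11, the cystine carrier, with 47.0 and 21.6 CPM in clone 3 and 39.0 and 24.4 CPM in clone 5, against 29.1 and 16.1 CPM in clone 2 and 25.2 and 20.04 CPM in clone 7. The first libraries of the shOgdh2081 clones stood above all others and the second ones among the control libraries. Among libraries of the same number, both shOgdh2081 clones stood above both control clones, which held for both numbers in 639 of all genes tested (4.87%). The log2 difference was 0.52 ± 0.10 (SE, unadjusted p = 0.00234), and the clone means of 33.01 ± 1.84 CPM with shOgdh2081 and 22.6 ± 0.0157 CPM in the control hide the spread between the libraries of a clone.

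Of 34 glycolysis and hypoxia genes, 2 had an unadjusted p under 0.05 and the median was -0.0175. Slc16a3, the lactate exporter, had 92.5 and 36.1 CPM in clone 3 and 120 and 41.9 CPM in clone 5, against 126 and 62.1 CPM in clone 2 and 150 and 64.2 CPM in clone 7. The first library was higher than the second in all 4 clones, and the hairpins overlapped over both numbers. Among libraries of the same number, both shOgdh2081 clones lay below both control clones, which held for both numbers in 646 of all genes tested (4.92%). The 25 genes of the TCA cycle and pyruvate entry had a median of 0.000188 with 0 at an unadjusted p under 0.05, and the 30 genes of cholesterol synthesis and uptake a median of 0.166, also with 0.

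Cell cycle and growth genes were near 0. The 44 G1/S genes had a median log2 difference of -0.0727, and Cdt1, the replication licensing factor, had 141 to 167 CPM with shOgdh2081 against 151 to 203 CPM in the control. The ranges overlapped, and among libraries of the same number both shOgdh2081 clones lay below both control clones. The 48 G2/M genes had a median of 0.018. The 40 MYC target and ribosome biogenesis genes had a median of 0.078, and nucleolin (Ncl) had 1956 to 2169 CPM with shOgdh2081 against 1627 to 1966 CPM in the control.

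Neutrophil genes were far apart between clones of the same hairpin. The 33 tested neutrophil maturation genes had a median log2 difference of -0.0896 between hairpins. Between clones of one hairpin the median was 0.415 for shOgdh2081 clone 5 over clone 3, and -1.26 for control clone 2 over clone 7. Past 2-fold with no overlap of libraries were 9 genes higher and 2 lower in clone 5 than in clone 3 (backgrounds 2.56% and 3.5% of all genes), and 1 higher and 17 lower in control clone 2 than in clone 7 (4.18% and 4.36%). S100a8, a calcium-binding protein of neutrophils, had 422 and 316 CPM in shOgdh2081 clone 5 and 224 and 186 CPM in clone 3, against 101 and 108 CPM in control clone 2 and 894 and 563 CPM in control clone 7. The control clones thus lay below and above both shOgdh2081 clones.

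Mpo, the primary granule myeloperoxidase, had 3370 and 2479 CPM in shOgdh2081 clone 5 and 484 and 509 CPM in clone 3, against 1953 and 1537 CPM in control clone 2 and 1344 and 806 CPM in control clone 7. Here the shOgdh2081 clones enclosed the control. Mpo did not stand for its list of 14 tested primary granule genes, whose median for clone 5 over clone 3 was 0.12. Past 2-fold with no overlap of libraries, 2 of them were higher and 1 lower in clone 5 (backgrounds 2.56% and 3.5% of all genes). For control clone 2 over clone 7 it was also 2 and 1 (4.18% and 4.36%), with a median of 0.0242. Lyz2, the lysozyme of granulocytes and macrophages, had 299 and 237 CPM in clone 5 and 1405 and 977 CPM in clone 3, against 200 and 196 CPM in clone 2 and 710 and 606 CPM in clone 7. Clones 5 and 2 were low and clones 3 and 7 high.

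Of the 28 tested self-renewal factors, 0 passed and the median log2 difference between hairpins was 0.0161. Meis1, the homeobox cofactor of MLL-fusion leukaemia, had 48.6 and 45.1 CPM in shOgdh2081 clone 3 and 41.5 and 41.2 CPM in clone 5, against 54.8 and 46.2 CPM in control clone 2 and 65.2 and 59.5 CPM in control clone 7. The hairpins overlapped, although among libraries of the same number both shOgdh2081 clones lay below both control clones, with a log2 difference of -0.37 ± 0.14 (SE, unadjusted p = 0.0409). Hoxa9, the partner of Meis1, had 291 and 203 CPM in clone 3 and 278 and 222 CPM in clone 5, against 264 and 214 CPM in clone 2 and 126 and 103 CPM in clone 7, so that control clone 7 stood below the other clones. Past 2-fold with no overlap of libraries, 9 genes of this list were higher and 1 lower in control clone 2 than in clone 7. The backgrounds were 4.18% and 4.36% of all genes, and the median of the list was 0.354. For shOgdh2081 clone 5 over clone 3 it was 1 gene in each direction (backgrounds 2.56% and 3.5%), with a median of 0.00393. Hoxa11 averaged 0.911 CPM in shOgdh2081 clone 5 and 0.122 CPM in clone 3, against 31.2 CPM in control clone 2 and 0 CPM in control clone 7, and was the largest difference of the list between hairpins (-4.80 ± 2.69 on the log2 scale, SE).

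Some markers of other cell types differed between clones. Summed markers of megakaryocytes and platelets ranged from 273 to 1245 CPM with shOgdh2081 and from 175 to 421 CPM in the control, and 9 of the 15 stayed under 1 CPM in all 8 libraries. Thbs1, the thrombospondin that led them, had 223 and 148 CPM in shOgdh2081 clone 5 and 1086 and 585 CPM in clone 3, against 45.9 and 38.5 CPM in control clone 2 and 282 and 210 CPM in control clone 7. B cell markers, led by Ighm, summed to 125 to 232 CPM with shOgdh2081 and 201 to 258 CPM in the control, with 13 of 14 markers under 1 CPM. Of the T and natural killer cell markers 15 of 18, and of the mast cell, basophil and eosinophil markers 16 of 20, stayed under 1 CPM. The last of these lists summed to 33.3 to 48.97 CPM with shOgdh2081 and 28.3 to 38.6 CPM in the control and was led by Mcpt8, with a mean of 20.2 CPM. Cpa3, the mast cell carboxypeptidase, had 5.82 and 4.68 CPM in shOgdh2081 clone 5 and 15.5 and 13.1 CPM in clone 3, against 2.32 and 1.88 CPM in control clone 2 and 6.26 and 7.84 CPM in control clone 7. Their part in the differences between clones was not tested.

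The main axis of the data placed clones of the same hairpin on opposite sides. On the first principal component (47% of the variance of the 8 libraries), shOgdh2081 clone 5 lay at 23.4 and 26.4 and shOgdh2081 clone 3 at -33.9 and -30.5, with control clone 2 at 41.2 and 42.4 and control clone 7 at -34.6 and -34.5. The second component (16.5%) placed the first library of each clone above the second.

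**Figure D3:**
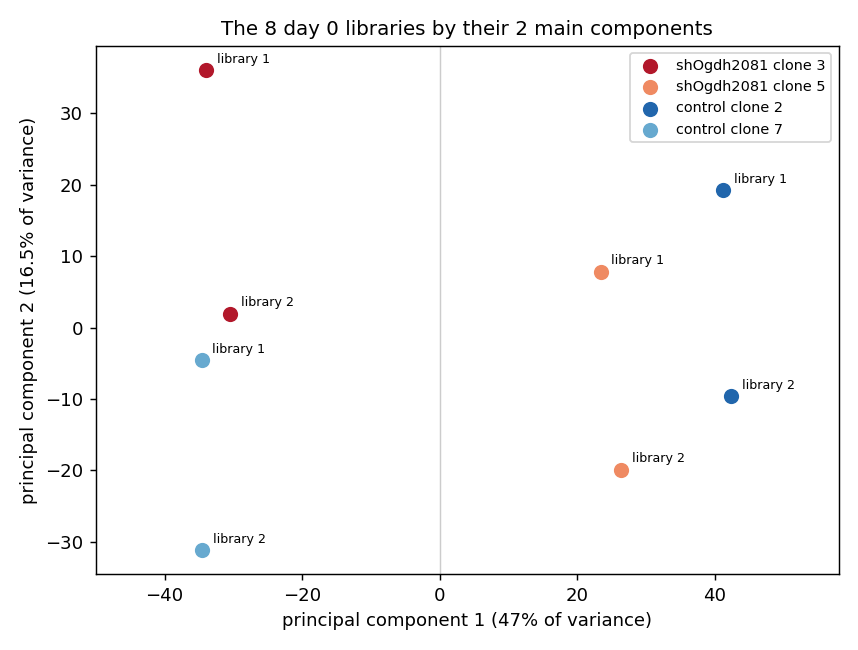
The 8 day 0 libraries on their first principal component (x axis) and second (y axis), coloured by clone. shOgdh2081 clone 5 and control clone 2 lie at the right, and shOgdh2081 clone 3 and control clone 7 at the left.

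Pairs of clones were compared by the number of genes past 2-fold whose libraries did not overlap. Between shOgdh2081 clones 5 and 3 there were 795 (6.06%), 336 higher and 459 lower in clone 5. Between control clones 2 and 7 there were 1121 (8.54%), 549 higher and 572 lower in clone 2. Across hairpins the counts were 512 for shOgdh2081 clone 5 and control clone 2, 585 for clone 3 and control clone 7, 857 for clone 5 and control clone 7, and 1010 for clone 3 and control clone 2. The SD of the log2 difference over 9558 genes of at least 5 CPM ordered the pairs likewise: 0.312, 0.331, 0.534 and 0.594 for these 4 pairs, with 0.524 between the shOgdh2081 clones and 0.623 between the control clones. The smallest spread was between clones of different hairpins. At day 4 the direction past 2-fold was seen again for 55.6% of the genes of the shOgdh2081 pair and 74.2% of those of the control pair.

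The differences within the hairpins ran alike. In both pairs 430 genes were past 2-fold, which is 54.1% of the genes of the shOgdh2081 pair and 38.4% of those of the control pair. Of these, 371 differed the same way (160 higher and 211 lower in shOgdh2081 clone 5 and in control clone 2) and 59 opposite ways, and 234 did so in both pairs at both days. Over the 9558 genes the differences had a Pearson r of 0.658 and a Spearman rank correlation of 0.398, and r was 0.628 without the genes of chromosome Y. These are correlations across genes, which are not independent replicates.

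**Figure D4:**
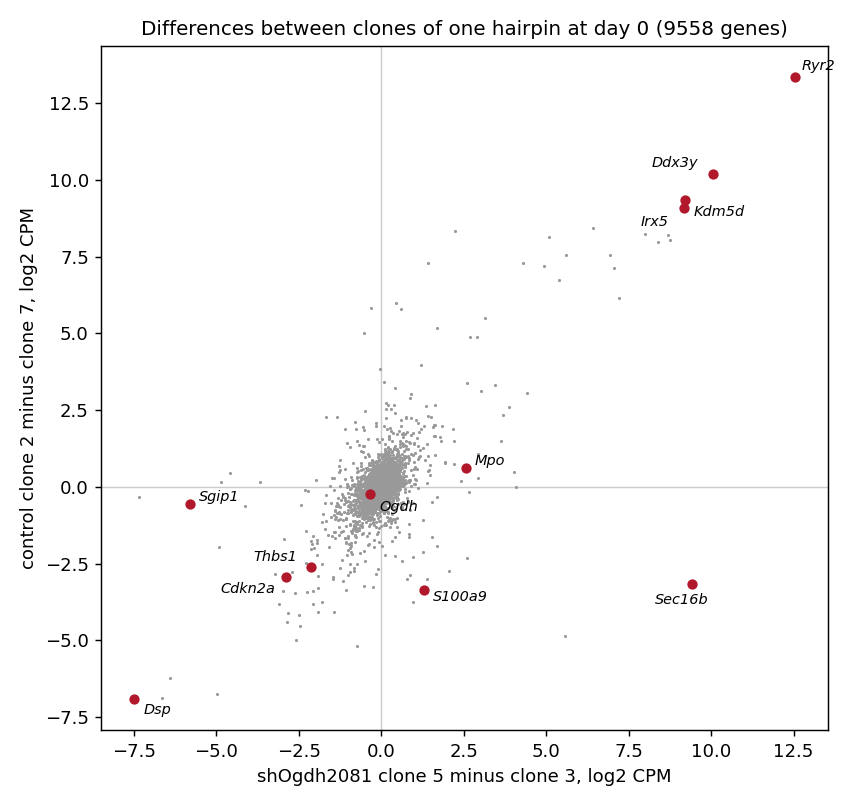
Log2 CPM difference (prior count 2) of shOgdh2081 clone 5 minus clone 3 (x axis) against control clone 2 minus clone 7 (y axis) for the 9558 genes of at least 5 CPM at day 0, with named genes in red. Ryr2, the genes of chromosome Y and Irx5 lie at the upper right and Dsp at the lower left, while Sec16b lies at the lower right and Sgip1 at the left near 0 on the y axis.

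The genes at the ends of this pattern were on in 1 clone of each hairpin and off in the other. Ryr2, which encodes a calcium release channel of heart muscle and brain (GRCm38 chromosome 13, 11553102 to 12106945), had 7321 and 6386 counts in shOgdh2081 clone 5 and 0 and 0 in clone 3, against 7559 and 7884 counts in control clone 2 and 0 and 0 in control clone 7. Set against 3 counts over the clone with none, it was at least 3160-fold higher in clone 5 than in clone 3 and at least 7220-fold higher in clone 2 than in clone 7. At day 4 it had 15494 counts in shOgdh2081 clone 5 and 47 in clone 3, 634-fold apart (477 to 864, 95% interval for counting error). Between hairpins the log2 difference was -0.81 ± 3.77 (SE).

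Dsp, which encodes the desmosome protein desmoplakin (chromosome 13, 38151294 to 38198577), ran the other way, with 5 and 3 counts in shOgdh2081 clone 5 and 519 and 753 in clone 3, against 4 and 4 counts in control clone 2 and 1028 and 570 in control clone 7. It was 230-fold higher in clone 3 than in clone 5 (95% counting interval 116 to 534) and 143-fold higher in clone 7 than in clone 2 (72.2 to 331). The upstream sequences of Ryr2 and Dsp are shown because these genes had the clearest opposite patterns. They are the 250 bases before the gene start from the RefSeq promoter table of GRCm38.p6, at chr13:12106946-12107195 on the minus strand for Ryr2 and chr13:38151044-38151293 on the plus strand for Dsp, written 5′ to 3′, with each CG in capitals.
Ryr2: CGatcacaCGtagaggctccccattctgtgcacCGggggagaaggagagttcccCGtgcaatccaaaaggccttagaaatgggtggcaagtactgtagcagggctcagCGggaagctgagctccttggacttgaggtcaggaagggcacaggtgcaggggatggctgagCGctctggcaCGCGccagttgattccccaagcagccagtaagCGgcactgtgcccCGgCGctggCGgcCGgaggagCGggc
Dsp: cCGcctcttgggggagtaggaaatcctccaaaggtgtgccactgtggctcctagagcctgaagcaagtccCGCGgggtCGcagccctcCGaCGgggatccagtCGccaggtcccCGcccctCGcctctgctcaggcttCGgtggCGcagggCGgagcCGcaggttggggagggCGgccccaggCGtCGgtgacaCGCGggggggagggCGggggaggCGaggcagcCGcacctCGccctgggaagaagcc
The motif searched was CG, which reads the same on both strands. The Ryr2 stretch holds 14, and 29.4% of the 32851 promoters of the table hold as many or more. The Dsp stretch holds 22, reached by 14.8%, against a median of 6. These counts describe the letters of the 2 windows.

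Irx5, an Iroquois homeobox factor, had 758 and 583 counts in shOgdh2081 clone 5 and 0 and 0 in clone 3, against 636 and 557 counts in control clone 2 and 1 and 0 in control clone 7. Prr5, a subunit of the mTORC2 kinase complex, had 0 and 0 counts in clone 5 and 69 and 89 in clone 3, against 0 and 0 counts in clone 2 and 161 and 80 in clone 7. Pls3, the actin-bundling plastin on chromosome X, had 1 and 0 counts in clone 5 and 98 and 95 in clone 3, against 0 and 1 counts in clone 2 and 150 and 106 in clone 7. Each of these genes was present in clones 5 and 2 or in clones 3 and 7, and within the 8 libraries at most 1 count per library was found elsewhere.

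The 3 tested genes of chromosome Y followed Ryr2. Ddx3y, an RNA helicase, had 1409 and 1047 counts in shOgdh2081 clone 5 and 0 and 0 in clone 3, against 888 and 828 counts in control clone 2 and 0 and 0 in control clone 7. The histone demethylases Kdm5d and Uty had 1362 and 587 counts summed over clone 5 and 0 over clone 3, against 965 and 444 over clone 2 and 0 over clone 7. Their counts stayed at 0 in clone 3 at day 4 for Ddx3y and Uty, and Kdm5d had 2. Eif2s3y, also on chromosome Y, had 0 counts and Xist 3 counts over the 8 day 0 libraries.

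Cdkn2a, which encodes the cell cycle inhibitors p16Ink4a and p19Arf, followed Dsp at a lower contrast. It had 8.13 and 6.79 CPM in shOgdh2081 clone 5 and 61.5 and 52.1 CPM in clone 3, against 5.74 and 4.88 CPM in control clone 2 and 44.5 and 34.5 CPM in control clone 7.

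Other genes were split between the shOgdh2081 clones and not in the same way between the control clones. Sec16b, of protein export from the endoplasmic reticulum, had 65.1 and 66.4 CPM in clone 5 and 0 and 0 CPM in clone 3, against 3.14 and 3.25 CPM in control clone 2 and 30.7 and 27.4 CPM in control clone 7. Plekha5 had 0 and 0 CPM in clone 5 and 15.8 and 15.5 CPM in clone 3, against 6.56 and 6.01 CPM in clone 2 and 7.24 and 9.05 CPM in clone 7. Sgip1, an endocytic adaptor, had 0.239 and 0.794 CPM in clone 5 and 34.9 and 32.1 CPM in clone 3, against 10.4 and 13.5 CPM in clone 2 and 17.6 and 18.2 CPM in clone 7. Sec16b differed in both pairs in opposite directions, and Plekha5 and Sgip1 differed past 2-fold in the shOgdh2081 pair and not in the control pair. The shOgdh346 clones also differed at day 0, with Plekha5 at 7.33 and 7.07 CPM in their clone 5 and 1.38 and 1.25 CPM in their clone 1.

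Chromosome 7 stood apart in the shOgdh2081 pair. The median log2 difference of clone 5 over clone 3 was 0.137 over its 702 tested genes, 79.5% of which were higher in clone 5, and 0.113 at day 4. The other chromosomes, leaving out Y, had medians of -0.0239 to 0.0167 with 43.2% to 54.4% of genes higher. Against the mean of the control clones, the chromosome 7 median was 0.0741 in clone 5 and -0.061 in clone 3. All 28 windows of 25 neighbouring tested genes on chromosome 7 were above 0, between 0.0383 and 0.257, and 23 exceeded 0.1. Elsewhere 160 of 345 windows (46.4%) were above 0 and 0 exceeded 0.1, with values between -0.236 and 0.0969. Below 0, some of those windows were thus as far from 0 as windows of chromosome 7, such as -0.149 on chromosome 15. Between hairpins the chromosome 7 median was -0.000877. Control clone 2 over clone 7 had 0.0272 on chromosome 7, with 56.1% of genes higher in clone 2. That was also above the other chromosomes of the control pair, which had -0.0432 to 0.0203 without Y. No test was made.

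**Figure D5:**
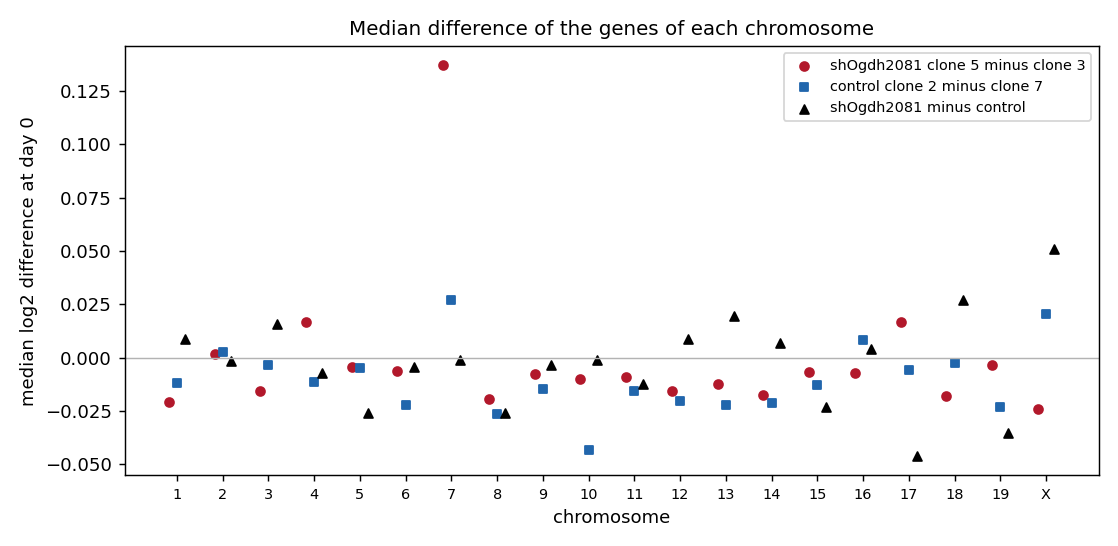
Median log2 difference at day 0 of the tested genes of each autosome and of chromosome X, for shOgdh2081 clone 5 minus clone 3 (red circles), control clone 2 minus clone 7 (blue squares) and shOgdh2081 minus control (black triangles). The shOgdh2081 pair has a median of 0.137 on chromosome 7 and lies between -0.0239 and 0.0167 on the others.

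Genes that respond to Ogdh knockdown in the other hairpin were looked up at day 0. In shOgdh346 clones the 100 largest rises and the 100 largest falls from day 0 to day 4 were taken (median log2 changes of 4 and -1.87). With shOgdh2081 before doxycycline, the rising genes had a median log2 difference of 0.25 with 1 at an unadjusted p under 0.05, and the falling genes a median of -0.0674 with 3, with 0 called by edgeR in both. All genes had a median of -0.0013 and 225 at that p. The shOgdh346 day 0 libraries that helped choose these genes also entered the estimate of the spread behind these p-values. The rising genes spread further between clones of a hairpin, with medians of -0.444 for clone 5 over clone 3 and -0.83 for control clone 2 over clone 7. At day 4 the medians with shOgdh2081 were 3.59 and -1.3, with 58 and 44 of the genes called. Of all 13747 genes tested at day 4, 13.8% were called. The shOgdh346 day 4 libraries also helped choose these genes and entered the estimate of the spread at day 4.

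The genes that leaned at day 0 were followed in the day 4 libraries of the same clones. Of the 128 genes with an unadjusted p under 0.05 and no overlap of libraries, 122 were tested at day 4, 72 of them (59%) in the same direction. Of the 122, 12 were called in the same direction and 5 in the opposite one, where 7.04% of all 13747 genes were called higher and 6.78% lower. Ryk kept its direction, at 2.601 on the log2 scale (adjusted p = 0.0357), as did Prss16, at -1.55 (adjusted p = 0.0215), and Prodh, at -0.95 (adjusted p = 0.0312). The 5 called in the opposite direction, all below 0 at day 0 and above 0 at day 4, were Nfkbia at 1.55 (adjusted p = 0.0212), Csnk1e at 0.989 (0.024), Pitpnm1 at 0.6 (0.0456), Cyba at 0.586 (0.0318) and Cnn2 at 0.549 (0.0395), named after their values were seen apart from Nfkbia. Hsp90aa1 stood at -0.11 and Sema4d at 0.49 at day 4, both on the other side of 0 and neither past the threshold. The clones are the same at both days, so the day 4 libraries are not independent of the day 0 ones.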

How the data were processed

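The deposited values are whole-number read counts per Ensembl gene in 24 libraries. The mouse build mm10 (GRCm38) and the tools STAR 2.6.1a, featureCounts 1.6.3, Trimmomatic 0.36 and FastQC 0.11.5 are named in the submitters' processing notes, in no stated role. The labels' protocols instead name a human build, HTSeq and RPKM values, which the whole-number mouse counts contradict. Not given in the sources used here: strandedness, annotation release and treatment of multi-mapping reads. Therefore counts of near-identical or overlapping genes are uncertain. RNA was polyA-selected and read as single ends, per the labels' protocols.

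Counts of the 2 libraries of each clone at day 0 were summed, giving 6 sums in 3 hairpin groups (3 residual degrees of freedom). The shOgdh346 clones were outside the contrast but entered the filter, the scaling and the estimate of the spread. With the 4 sums of shOgdh2081 and control only, 12786 genes were tested and 0 called. Genes were filtered with filterByExpr, scaled with TMM and tested with edgeR 4.0.16 (R 4.3.3) with robust quasi-likelihood and Benjamini-Hochberg adjustment at 0.05, after a check on simulated counts. SE is that implied by the F statistic. limma 3.58.1 and DESeq2 1.42.0 were alternatives. Clone differences are log2 CPM with a prior count of 2. Folds against 0 use 3 counts over the clone; both these and the intervals reflect counting error alone. The change from day 0 to day 4 was fitted with the clone as a block.

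The libraries numbered 1 and 2 differed alike across clones: the differences correlated across genes at 0.371 to 0.463 in all 6 pairs of clones, so the numbers pair the libraries. The libraries of a clone were not repeats within counting noise (chi-square per gene 6.78 to 10.3).

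Named genes were Ogdh; up to 12 per direction with at least 5 CPM, libraries that did not overlap and adjusted p under 0.05, or else the smallest p; the member of each of 28 lists with the smallest p; and the 4 largest differences in each direction between clones of a hairpin. The comparison, the lists and these rules were chosen with earlier results of these data known, and Dlst, Dld, Sucla2, Ogdhl, S100a8, Mpo, Lyz2, Hoxa9, Hoxa11, Thbs1 and Cdkn2a were named outside the rule after their values were seen. Some named genes and markers are not reported here.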

Additional observations from a re-analysis of the deposited data

Results flagged for a closer look

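Of 63 named genes, 25 had a shOgdh2081 minus control difference that changed from day 0 to day 4 in edgeR's quasi-likelihood test with the clone as a block (adjusted p under 0.05, where 27.8% of all 14249 genes tested did so). Many of these genes were named by their day 0 difference, which this test subtracts. A change back toward or past 0 is therefore partly built in for them. The changes below are on the log2 scale. Ogdh itself changed by -1.87. Changes above 0 were 5.1 for Col5a1, 4.51 for the cystine carrier Slc7a11, 3.9 for the decoy receptor Il1r2, 3.19 for Cd14, 2.19 for Klf1, 1.9 for Ift80, 1.83 for Nfkbia, 1.55 for the lactate exporter Slc16a3 and 1.47 for Cd33. Smaller changes above 0 were 1.23 for Ckap4, 0.986 for Sema4d, 0.696 for Sec16b, 0.683 for Sesn2 and 0.681 for Scand1. Changes below 0 were -3.75 for Ighm, -1.34 for Sgip1, -0.916 for Calr, -0.89 for Ncl, -0.806 for Prss16, -0.799 for Stard4, -0.69 for Cdt1, -0.4 for Lias, -0.398 for Hsp90aa1 and -0.334 for Rbm26. Of the 25, 9 had a difference below 0 at day 0 and above 0 at day 4 (Ckap4, Sema4d, Scand1, Il1r2, Slc16a3, Nfkbia, Sesn2, Klf1 and Col5a1), 7 the reverse (Calr, Ncl, Stard4, Lias, Hsp90aa1, Rbm26 and Sgip1), and 9 kept their sign. Among the sign changes, Ckap4, Sema4d, Scand1, Lias, Hsp90aa1 and Rbm26 had been named for non-overlap and smallest p at day 0. None of them passed the threshold at day 4. Ift80 and Prss16, named by the same rule, kept their sign and passed at day 4.

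In 126 groups of 4 libraries, 3 had a library far from the others, where chance gives about 1 in 20. All were first libraries of shOgdh2081 clones. Cdt1 had 167 CPM in the first library of clone 5, against 141 to 142 CPM in the other 3. Il1r2 had 0.877 CPM in the same library, against 0.339 to 0.391 CPM, which is 11 counts against 3 to 4. Trac, a T cell marker, had 0.912 CPM in the first library of clone 3, against 0.679 to 0.717 CPM, but its 7 counts there lie among the 6 to 9 counts of the others. At these counts the Il1r2 and Trac values are near the counting floor.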

How the results depend on the processing

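With 25 alternatives, the count of genes called at day 0 was 0 in the fit reported, 183 with no filter beyond 1 count (100 higher, 83 lower), 2 with DESeq2 and 0 to 1 over the 12 fits that left out a library or a clone. The 1 gene was Smg9 (lower) without control clone 7 and Mbp (lower) without shOgdh2081 clone 5; both were named after their values were seen, and the lone clone was assumed to vary like the other groups. With the libraries as separate samples and a replicate block, 0 genes were called (1038 at an unadjusted p under 0.05, against 614 without the replicate block), and 0 with limma voom, a replicate block and the clone as a random effect (395). The replicate block changed no call. The Ogdh difference stayed below 0 and short of the threshold in every alternative, at -0.286 with the replicate block (adjusted p = 0.489) and -0.453 to -0.127 over the left-out libraries and clones. Of 51 other named genes, Uty alone changed direction, at 1.21 with limma voom, 1.14 with limma voom and the replicate block, and -11.1 to 11 over the fits that left out a library or clone. These clones were few: 2 per hairpin and 3 residual degrees of freedom limit what can be called.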
